A study of Mus musculus with 6 samples.

Results

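The nuclear genes for subunits of the mitochondrial respiratory chain were examined in RNA-seq libraries of the developing mouse molar. They were taken by symbol from the deposited expression table: Nduf followed by a, b, c, s or v and a digit, the 4 Sdh genes, and every symbol beginning with Uqcr, Cox4 to Cox8 or Atp5, with the Ndufaf assembly factors left out. This gave 86 of 25899 genes, with 37 named for complex I, 4 for complex II, 8 for complex III, 19 for complex IV and 18 for complex V. RNA came from dental mesenchyme at the apical end of lower first molars on postnatal day 7.5, in mice of mixed C57Bl6/129S6/SvEvTac background. The 3 mutants carried Gli1-CreER and Bmpr1a fl/fl, and the 3 littermate controls carried Bmpr1a fl/fl alone. The floxed alleles of the BMP receptor gene Bmpr1a were therefore shared by both genotypes, and the driver acts only in Gli1-expressing cells and their progeny, after tamoxifen, whose schedule and use in controls the labels do not give. Controls 1 and 2 came from litter 1 together with mutants 1 and 2, and control 3 shared litter 2 with mutant 3.

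The respiratory chain passes electrons from NADH through complex I, or from succinate through complex II, to coenzyme Q, then through complex III and cytochrome c to complex IV, where oxygen is reduced. Complexes I, III and IV pump protons across the inner mitochondrial membrane, and complex V, the ATP synthase, uses the gradient to make ATP. Subunits are encoded partly in the nucleus, as all members here are, and partly in mitochondrial DNA. Several complex IV and ATP synthase subunits exist as paralogs used by different tissues, such as the muscle forms of Cox6a, Cox7a and Cox8.

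The symbols do not follow the complexes exactly. Cox4nb encodes a subunit of the endoplasmic reticulum membrane complex and was named for its place beside Cox4i1. Atp5s and Atp5sl are not structural subunits, and Atp5l-ps1 is a pseudogene. Ndufa4 is counted by its name, although its product is now placed in complex IV, and Cox7a2l encodes a factor that joins complexes III and IV into supercomplexes. The 13 subunit genes of mitochondrial DNA were listed at 0 in all 6 libraries, so the chain was measured here through its nuclear genes alone.

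Libraries held 15916045 to 20609420 reads on genes. Levels are in RPM, reads scaled to a library of 1000000, and are not divided by gene length unless stated, and 3 reads, the smallest level treated as detectable, were worth 0.0987 to 0.126 RPM, which covers counting error only. Levels of the floxed gene Bmpr1a in controls 1 to 3 were 121, 139 and 150 RPM, and in mutants 1 to 3 they were 108, 120 and 111 RPM. Mutants lay below controls throughout, but mutant 2 was just under control 1. Of the genes tested below, 1.67% were lower in mutants without overlap. The log2 change of Bmpr1a was -0.27 (SE 0.14, unadjusted p = 0.091 by limma, described below). Reads from undeleted exons and from other cells count towards these levels. Members of the chain are expressed in most cells, and in bulk RNA fewer cells of a type and less RNA per cell cannot be told apart. Nothing in the labels says that the libraries come from separate animals, so the p-values measure the spread between these samples.

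Of the 86 genes, 81 had a mean of at least 1 RPM and were tested, and all 81 were above 3 reads in every library. The 5 that were not tested all belong to complex IV and are paralogs whose partners were expressed here. Cox8b and Cox8c had no reads in any library. Cox6a2, the muscle form of Cox6a, had 1 read in control 1, 2 in mutant 1 and 0 in the other libraries. Cox7b2 had 2 reads in control 2 and 0 elsewhere. Cox7a1, the heart and muscle form of Cox7a, had 3, 7 and 22 reads in controls 1 to 3 and 8, 11 and 8 in mutants 1 to 3. Its highest level, 0.777 RPM in control 3, compares with 73.0 RPM for Cox7a2 in the same library. Striated muscle markers were also near 0: none of the 8 genes on that list reached a mean of 1 RPM, and Ckm was at most 0.0419 RPM. The brown fat marker Ucp1 was listed at 0 throughout.

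Levels per kilobase of transcript allow genes to be ranked. The highest mean over the 6 libraries was 343 RPM per kb for Cox4i1, a regulatory subunit of complex IV. Next came Atp5b, the catalytic beta subunit of the ATP synthase, at 303, Atp5e at 301, Cox8a at 295 and the c-ring gene Atp5g3 at 232. Among tested members the lowest were Atp5s at 4.22, Atp5sl at 5.81 and Ndufa4l2, a paralog of Ndufa4, at 6.56 RPM per kb. The first and second of these are not structural subunits. Among tested members the ratio of the highest to the lowest library ran from 1.14 to 2.28 with a median of 1.37. The median was 1.58 for all tested genes with reads in every library. This comparison was not matched for level: the mean log2(RPM + 1) per library was 5.53 to 5.83 for members and 4.24 to 4.42 for all tested genes. Of the 81 tested members, 28 share at least 50 bases at 95% identity or more with another annotated transcript, often a pseudogene. Reads from such copies may be counted with them, or shared reads may have been left out, and which was done is not known. The median level was 49.8 RPM per kb for these 28 and 60.6 RPM per kb for the other 53. Their ranks may therefore be too high or too low.

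RefSeq promoters of GRCm38.p6, from 250 bases before to 50 after the start, were found for 69 of the 86 members (75 promoters). They were searched on both strands for 5 letter strings. The first was the palindromic core of NRF1, a transcription factor known for driving respiratory chain genes, which the capitals of Ndufa11 and Atp5g2 show and whose middle letters may vary at 1 position. CCGGAAG is read by ETS factors such as GABP, and AAGATGGC by YY1. The others were TATAAA and CCAAT. The promoters of 5 members are shown over the 170 bases before the start, 5′ to 3′ on the gene's strand, because they span the range from several NRF1 strings to none, and because Cox6a1 and Atp5g1 return in the comparisons. Capitals mark NRF1 and ETS strings. Sdha (chr13:74350241-74350410, minus strand) holds 3 NRF1 strings, Cox6a1 (chr5:115348959-115349128, minus strand) holds 2 and an ETS string on the other strand, Ndufa11 (chr17:56717592-56717761, plus strand) and Atp5g2 (chr15:102671048-102671217, minus strand) hold 1 each, and Atp5g1 (chr11:96075632-96075801, minus strand) holds none of either.
Sdha: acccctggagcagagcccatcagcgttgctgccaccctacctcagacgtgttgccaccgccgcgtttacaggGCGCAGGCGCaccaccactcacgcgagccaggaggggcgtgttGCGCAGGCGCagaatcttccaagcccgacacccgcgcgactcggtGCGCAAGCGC
Cox6a1: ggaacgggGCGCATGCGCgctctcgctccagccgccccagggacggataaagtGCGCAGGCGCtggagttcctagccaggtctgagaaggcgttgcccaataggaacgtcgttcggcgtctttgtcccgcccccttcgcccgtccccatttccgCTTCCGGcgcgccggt
Ndufa11: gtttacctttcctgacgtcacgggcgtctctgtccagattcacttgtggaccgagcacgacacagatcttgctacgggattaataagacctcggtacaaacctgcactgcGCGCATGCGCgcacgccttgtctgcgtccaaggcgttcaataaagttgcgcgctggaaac
Atp5g2: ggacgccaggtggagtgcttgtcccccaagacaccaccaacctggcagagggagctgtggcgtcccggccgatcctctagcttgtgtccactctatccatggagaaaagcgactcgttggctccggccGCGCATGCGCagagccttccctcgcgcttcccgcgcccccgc
Atp5g1: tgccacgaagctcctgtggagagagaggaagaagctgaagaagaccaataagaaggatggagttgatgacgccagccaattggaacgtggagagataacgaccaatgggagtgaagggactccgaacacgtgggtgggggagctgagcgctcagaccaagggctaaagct
In Sdha, the flavoprotein subunit of complex II, the last string ended at the base before the start. The NRF1 strings of Ndufa11 and Atp5g2 read the same on both strands.

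The NRF1 string was present in 24.6% of the members with a promoter (17 of 69 genes), beside 11% of tested genes and 5.19% of all genes in the RefSeq table. The YY1 string was in 15.9% of members (11 genes), beside 4.99% and 3.19%. Among mitochondrial ribosomal protein genes both strings had a share of 17.9%. For ETS the shares were 23.2%, 19% and 9.93%, for TATAAA 10.1%, 8.67% and 15.7%, and for CCAAT 44.9%, 42.8% and 41.1%. By complex, the NRF1 string was in 66.7% of 3 complex II genes, 37.5% of 16 complex V genes, 21.9% of 32 complex I genes, 20% of 5 complex III genes and 7.69% of 13 complex IV genes. YY1 strings were found in complex I (21.9%) and complex V (25%) and in 0 of the promoters of complexes II, III and IV. These are matches of letters within the promoter windows, and neither binding nor use of any of them was measured.

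**Figure D1:**
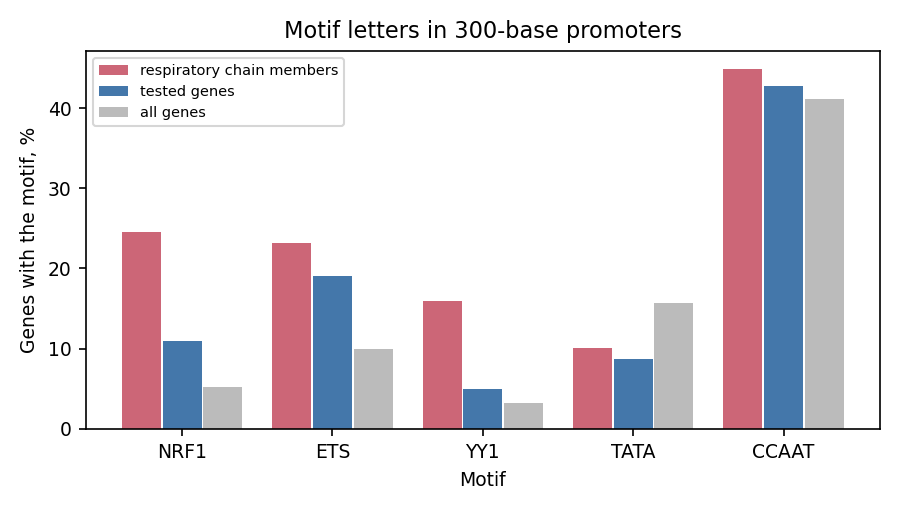
Share of genes (vertical axis, %) with each letter string in a promoter, for respiratory chain members, tested genes and all genes of the RefSeq table. Within the NRF1 and YY1 strings the bar of the members is the highest of the 3, at 24.6% and 15.9%, and the CCAAT bars lie between 41.1% and 44.9%.

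The first comparison asked whether the Bmpr1a mutation altered expression of the chain. No member passed the test between genotypes. With limma on log2(RPM + 1), 0 of 81 members had a Benjamini-Hochberg adjusted p under 0.05 and 0 had an unadjusted p under 0.05, beside 152 of 14444 tested genes (1.05%) at the unadjusted threshold, 52 higher (0.36%) and 100 lower (0.692%). The limma voom fit on recovered reads also gave 0 and 0 members. The smallest unadjusted p of a member was 0.169 in limma, for Ndufs5. The precision was enough to bound most changes: for 53 of 81 members the 95% interval of the change lay within 0.5 of 0 on the log2 scale, and for all 81 it lay within 1.

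The changes were small and mostly positive. Mutants were higher for 65 of 81 members (45.6% of all tested genes were), and the median change was 0.053 on the log2(RPM + 1) scale, beside -0.013 for all tested genes. By complex the medians were 0.063 for complex I, 0.027 for complex II, 0.055 for complex III, 0.080 for complex IV and 0.043 for complex V. In litter 1 the mutants were higher for 66 of 81 members with a median of 0.070, beside -0.077 for all tested genes. In litter 2 the single mutant was higher than its control for 37, with a median of -0.018 beside 0.12 for all tested genes. Without control 2 the count of higher members was 38 and their median -0.0062, and without mutant 3 they were 37 and -0.013. Cell markers also differed: all 5 osteoblast and 5 of 6 dental mesenchyme markers were lower in mutants. In each of these lists, and among 5 glial markers, 2 genes were lower at an unadjusted p under 0.05 by limma (0.692% of tested genes). The other marker lists had 0. The part of these cells in the genotype changes was not tested.

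Ndufs5, an accessory subunit of complex I, was the only member whose genotypes did not overlap, among 0.976% of tested genes that were higher in this way and 1.67% that were lower. It measured 14.0, 14.9 and 14.4 RPM in controls 1 to 3 and at 14.9, 18.3 and 18.2 RPM in mutants 1 to 3. Mutant 1 lay almost on control 2, and the change was 0.23 (SE 0.15). A near-identical copy covers 53.3% of the Ndufs5 transcript. Ndufa1, a small X-linked subunit of the membrane arm, had the only unadjusted p under 0.05 among members when litter 1 was taken alone (log2 change 0.43, Benjamini-Hochberg adjusted p = 1.00 by limma). In that fit 316 of all genes had an unadjusted p under 0.05. Without control 3, Ndufa1 was again the only member with one (log2 change 0.48), beside 239 of all genes. Its levels were 24.1, 25.5 and 42.2 RPM in controls and 35.4, 32.0 and 37.7 RPM in mutants, so the highest value of all belonged to control 3. Ndufa1 is named because of these values.

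The extremes within each complex were also within error. In complex I the most positive change was that of Ndufa4l2, at 0.27 (95% interval -0.22 to 0.76), and the most negative that of Ndufa12, a subunit at the junction of the matrix and membrane arms, at -0.22 (-0.63 to 0.20). In complex II they were Sdhc, a membrane anchor, at 0.081 and the flavoprotein Sdha at -0.059. In complex III, Uqcr10 was at 0.16 and the core protein Uqcrc2 at -0.042, and in complex IV, Cox4i1 was at 0.12 and Cox4i2 at -0.11. In complex V, Atp5l, the g subunit of the membrane part, was at 0.18 and Atp5sl at -0.028.

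**Figure D2:**
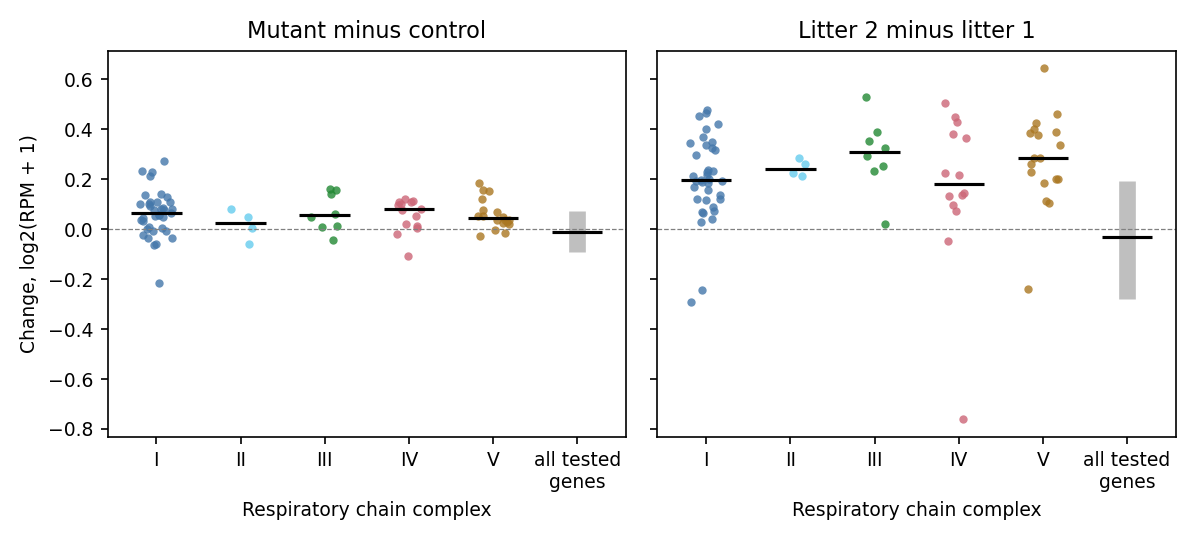
Change of each tested member on the log2(RPM + 1) scale (vertical axis) by complex, for mutant minus control (left) and litter 2 minus litter 1 (right). Points are genes, black lines are medians, and the grey bar spans the middle 50% of all tested genes. The genotype changes lie around 0, and in the litter panel 76 of 81 points lie above 0, with Cox4i2 lowest at -0.76.

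The second comparison, between litters with genotype as a covariate, uses the other labelled difference between the samples. Since each genotype has a single library in litter 2, a litter cannot be told apart from an animal or a dissection. For 76 of 81 members the litter 2 level was higher (46.5% of all tested genes were), with a median change of 0.23 on the log2(RPM + 1) scale beside -0.030 for all tested genes. It was higher in litter 2 among both the controls and the mutants for 67 of 81 members, with medians of 0.28 in controls and 0.18 in mutants, where those of all tested genes were -0.13 and 0.067. Summed over tested members, the level was 5675, 5399 and 6943 RPM in controls 1 to 3 and 5494, 6167 and 6901 RPM in mutants 1 to 3. Control 3 and mutant 3, the litter 2 libraries, were the highest, and mutant 2 was the highest of litter 1. Control 3 was the top library for 35 members, mutant 3 for 31 and mutant 2 for 12.

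At an unadjusted p under 0.05 in limma, 23 of 81 members were higher in litter 2 and 1 was lower, beside 7.21% of tested genes that were higher and 13.7% that were lower (20.9% together). Both litter 2 libraries lay above all 4 litter 1 libraries for 47 members (15% of tested genes), and below them for 1 (20.5%). No member passed adjustment over all genes: 0 of 81 had a Benjamini-Hochberg adjusted p under 0.05 in limma, where 126 of 14444 genes did (0.872%), and 0 did in limma voom, where 25 members had an unadjusted p under 0.05. The 126 genes became 0 with median-of-ratios scaling, 1 each with upper-quartile scaling, voom or the mean level of enamel epithelium markers as a covariate, and 2 with no filter on low values. The smallest adjusted p of a member was 0.0716, for Atp5g1. The counts moved with the scaling and with single libraries. The 24 members with an unadjusted p under 0.05 became 39 with median-of-ratios scaling (38 of them higher) and 41 with upper-quartile scaling (40 higher). They became 4 without control 3, 6 without control 2, 12 without mutant 3 and 14 without control 1. Atp5g1 and Cox5a were among the members with an unadjusted p under 0.05 in each of these 4 fits.

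**Figure D3:**
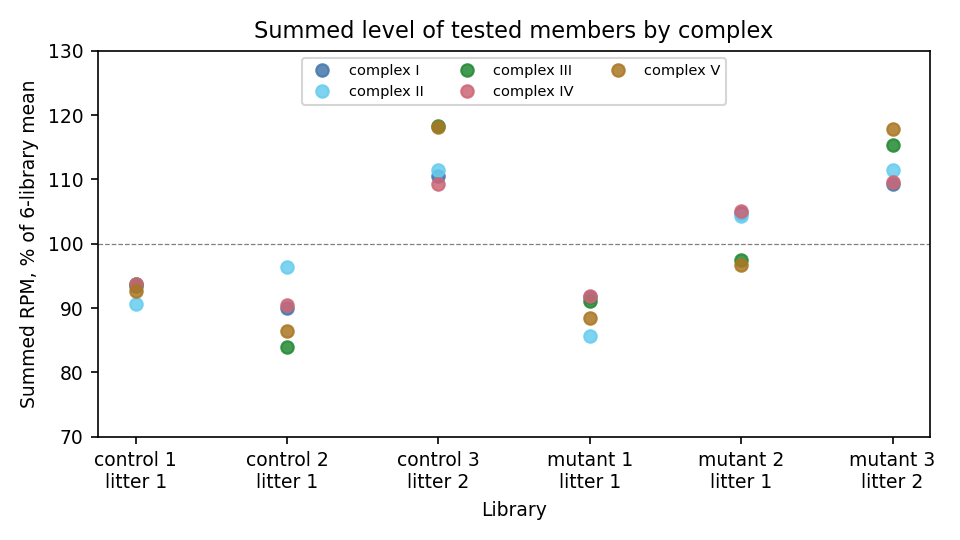
Summed RPM of the tested members of each complex in each library, as a percentage of that complex's mean over the 6 libraries (vertical axis). All 5 complexes are above their mean in control 3 and mutant 3, and all 5 are below it in controls 1 and 2 and mutant 1.

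In the complexes described next, the counts stand beside 46.5% of all tested genes higher in litter 2 and 7.21% higher with an unadjusted p under 0.05. In complex I, 35 of 37 members were higher in litter 2, 9 of them with an unadjusted p under 0.05, and the median change was 0.20. The 7 genes of the catalytic core, which carry the flavin and the iron-sulphur clusters, were all higher, with a median of 0.19. Of these, Ndufs8, which holds iron-sulphur clusters close to the coenzyme Q site, had an unadjusted p under 0.05. It measured 41.8, 36.9 and 60.0 RPM in controls and 41.7, 45.9 and 55.2 RPM in mutants, a litter change of 0.46 (SE 0.13, unadjusted p = 0.0114 by limma). The other 8 were accessory subunits, which stabilize the complex. Among them Ndufb6 measured 33.2, 29.7 and 47.4 RPM in controls and 34.2, 36.7 and 46.3 RPM in mutants, a change of 0.48 (SE 0.13). Both litter 2 libraries lay above the other 4 for Ndufs8 and Ndufb6. Ndufa6 was on the other side: it measured 66.9, 77.5 and 66.2 RPM in controls and 65.9, 87.4 and 58.8 RPM in mutants, and its groups overlapped (change -0.24, SE 0.16).

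All 4 genes of complex II, which is also an enzyme of the tricarboxylic acid cycle, were higher in litter 2, none with an unadjusted p under 0.05, and the median was 0.24. Sdha measured 123, 137 and 152 RPM in controls and 118, 132 and 145 RPM in mutants. The iron-sulphur subunit Sdhb measured 78.8, 70.9 and 93.0 RPM in controls and 68.9, 88.6 and 94.0 RPM in mutants. Sdhc, 1 of the membrane anchors, measured 79.5, 93.5 and 102 RPM in controls and 79.5, 102 and 110 RPM in mutants. The litter 2 libraries were highest for Sdha and Sdhb, whereas for Sdhc mutant 2 lay just above control 3.

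All 8 genes of complex III were higher, 3 with an unadjusted p under 0.05, and the median was 0.31. Without control 3 it was 0.17, beside 0.24 for complex V in that fit. Uqcrc1, a core protein, measured 156, 131 and 215 RPM in controls and 152, 144 and 206 RPM in mutants. Its litter change was 0.53 (SE 0.14, unadjusted p = 0.00714 by limma), with the groups well apart. The litter change was 0.35 for Uqcrfs1, the Rieske iron-sulphur protein, and 0.39 for Uqcrq, both with intervals that began close above 0 (0.057 and 0.0085).

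In complex IV, 12 of 14 tested genes were higher, 5 with an unadjusted p under 0.05, and 1 was lower at that threshold. The median was 0.18. Cox5a, a subunit on the matrix side, measured 43.9, 42.0 and 63.3 RPM in controls and 43.8, 47.3 and 63.2 RPM in mutants, and the litters did not overlap (change 0.51, SE 0.11, unadjusted p = 0.00365 by limma). Cox6a1, whose promoter is shown above, measured 80.7, 74.8 and 123 RPM in controls and 90.4, 91.4 and 107 RPM in mutants (change 0.45, SE 0.14). The litter change was 0.43 for Cox5b, a zinc-binding subunit, and 0.36 for Cox6b1, which faces the intermembrane space. Cox6c, Cox7c, Cox8a and Cox7a2l had changes of -0.046 to 0.13 and overlapping litters.

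Cox4i2 was the only member that was lower in litter 2 at an unadjusted p under 0.05. Cox4i1 and Cox4i2 are alternative forms of subunit IV, the second being known from lung and from oxygen-sensing and vascular mural cells. Cox4i2 measured 51.1, 72.7 and 38.9 RPM in controls and 49.3, 72.7 and 32.0 RPM in mutants. The litter 2 libraries were the lowest of each genotype and lay below all 4 of litter 1 (change -0.76, SE 0.22, unadjusted p = 0.0108, Benjamini-Hochberg adjusted p = 0.144 by limma). Over the alternatives with all 6 libraries the change ran from -0.78 to -0.68, and without mutant 3, the fit in which its unadjusted p was above 0.05, it was -0.64 (limma, unadjusted p = 0.0881). Cox4i1 went the other way, at 240, 199 and 297 RPM in controls and 233, 256 and 305 RPM in mutants (change 0.38, SE 0.15, unadjusted p = 0.0431 by limma). Per kilobase, Cox4i2 made up 17.9%, 27.2% and 11.8% of the pair in controls 1 to 3 and 17.8%, 22.5% and 9.69% in mutants 1 to 3. The share was thus highest in control 2 and mutant 2 and lowest in the litter 2 libraries. The summed level of pericyte markers was 922, 886 and 321 RPM in controls and 550, 865 and 571 RPM in mutants, lowest in control 3, while mutant 3 was slightly above mutant 1. Of their 6 tested genes, 5 were lower in litter 2, 3 with an unadjusted p under 0.05, and 1 was higher at that threshold, where 13.7% of tested genes were lower and 7.21% higher. Notch3, the 1 gene that passed adjustment, fell from 115 to 174 RPM in litter 1 to 33.2 and 55.6 RPM in litter 2 (change -1.80, limma with Benjamini-Hochberg adjusted p = 0.0478). It lost this call in 5 of 8 fits with all 6 libraries (adjusted p 0.0425 to 0.0816 over the 8, lost with both other scalings, voom, no filter and the enamel covariate) and in 5 of 6 with a library left out (0.0457 to 0.207, kept without mutant 1). Cspg4, the gene on the other side, was at 31.8 to 48.8 RPM in litter 1 and at 67.0 and 71.2 RPM in litter 2. Both were named after their values were seen. The part of these cells in the Cox4i2 values was not tested.

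**Figure D4:**
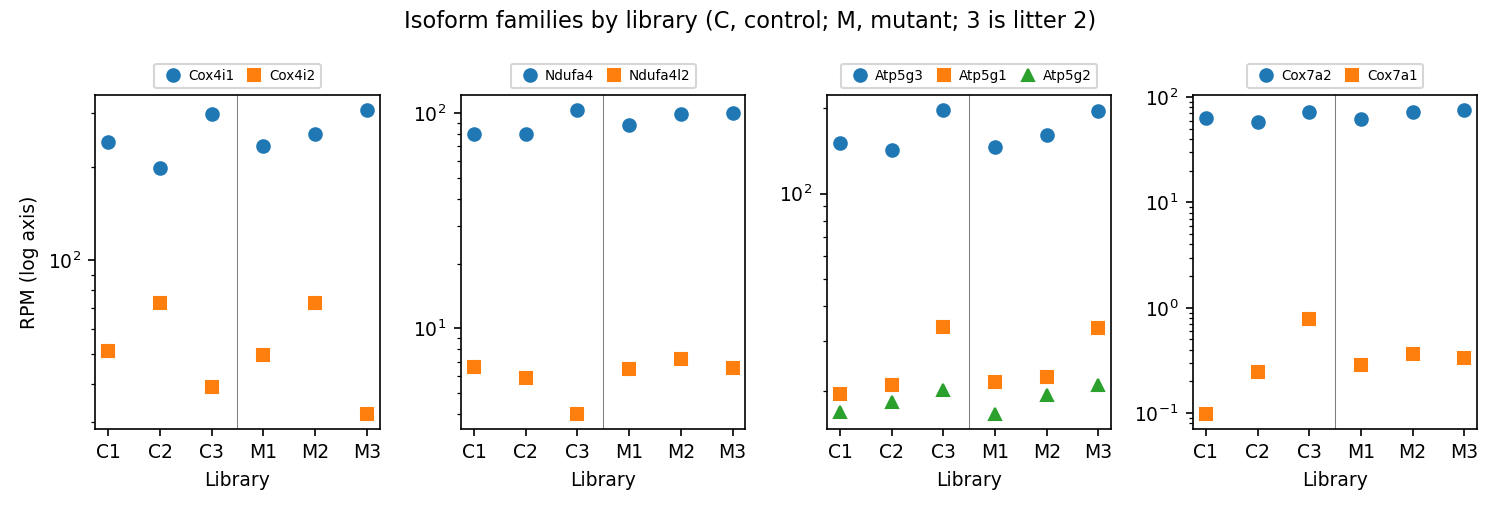
RPM (vertical log axis) of the members of 4 paralog families in each library, for controls (C) and mutants (M), where number 3 is litter 2. Cox4i2 is lowest and Cox4i1 highest in C3 and M3, Atp5g1 stands at 33.7 and 33.5 RPM in C3 and M3, and Cox7a1 stays under 1 RPM.

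Complex V had 17 of 18 genes higher in litter 2, 6 with an unadjusted p under 0.05, and a median of 0.28. It was 0.37 without mutant 3. The 5 genes of the F1 head, where ATP is made, all had litter 2 libraries above the other 4, as 58.0% of tested members and 15% of all tested genes did. The summed level of these 5 was 1428, 1316 and 1856 RPM in controls and 1364, 1460 and 1838 RPM in mutants. The alpha subunit Atp5a1 measured 510, 451 and 643 RPM in controls and 456, 483 and 666 RPM in mutants, a change of 0.46 (SE 0.17). Atp5b measured 525, 498 and 709 RPM in controls and 527, 551 and 677 RPM in mutants, a change of 0.40 (SE 0.17, unadjusted p = 0.0569 by limma). The peripheral stalk genes had a median of 0.28 and the 3 small membrane subunits Atp5j2, Atp5k and Atp5l one of 0.23, and for the latter the litters overlapped in each case.

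Atp5g1, Atp5g2 and Atp5g3 encode the same mature c subunit of the rotor ring and differ in their import sequences. Atp5g1 measured 19.5, 21.1 and 33.7 RPM in controls and 21.5, 22.5 and 33.5 RPM in mutants. The 4 litter 1 libraries lay close together and the mean of litter 2 was 1.59-fold theirs, the largest increase among tested members (0.64, SE 0.12, unadjusted p = 0.00162, Benjamini-Hochberg adjusted p = 0.0716 by limma). Atp5g3 measured 151, 143 and 197 RPM in controls and 146, 161 and 196 RPM in mutants (change 0.38, SE 0.13). Atp5g2 measured 16.9, 18.3 and 20.2 RPM in controls and 16.7, 19.4 and 21.0 RPM in mutants (change 0.20, SE 0.14), so its litter 2 libraries were also the highest but by less. Per kilobase, Atp5g1 was 11.8% to 13.2% of its sum with Atp5g3 in litter 1 and 15.0% in both litter 2 libraries. A near-identical copy covers 59.5% of the Atp5g1 transcript and 100% of that of Atp5g2, so levels of both are uncertain, and the difference between the 3 litter changes was not tested.

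Ndufa4l2, which is known as a hypoxia-induced gene and as a mural cell gene, measured 6.62, 5.88 and 4.03 RPM in controls and 6.47, 7.25 and 6.54 RPM in mutants. Control 3 was the low library and mutant 3 was not, so the litters overlapped (change -0.29, SE 0.19). Ndufa4 measured 79.7, 79.8 and 103 RPM in controls and 88.0, 98.4 and 100 RPM in mutants. Cox6b2, the testis form of Cox6b, was at 3.27 to 5.03 RPM in all libraries and made up 6.65% to 8.10% of its pair with Cox6b1 per kilobase. Cox7a2 was at 57.6 to 75.1 RPM, Cox7b at 49.6 to 60.4 RPM and Cox8a at 147 to 177 RPM.

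Members were also read with and without near-identical copies elsewhere, with no test between them. The 53 tested members without copies had a median litter change of 0.23 and the 28 with copies one of 0.20. At an unadjusted p under 0.05, 19 of the 53 without copies and 4 of the 28 with copies were higher, beside 7.21% of tested genes. A difference in the genotype change between litters was not found for any member: 0 of 81 had an unadjusted p under 0.05 for the interaction in limma, beside 5.06% of tested genes (3.1% positive and 1.96% negative), and 0 had an adjusted p under 0.05. The term was above 0 for 24 of 81 members and for 71% of tested genes. This term is estimated with 2 residual degrees of freedom per gene.

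Other gene lists of energy metabolism and protein synthesis were read in the same litter fit. Of all tested genes, 46.5% were higher in litter 2 and 7.21% were higher with an unadjusted p under 0.05. All 13 genes of the tricarboxylic acid cycle were higher in litter 2, 5 with an unadjusted p under 0.05, with a median of 0.26. Mdh2, the mitochondrial malate dehydrogenase, measured 113, 103 and 166 RPM in controls and 110, 113 and 151 RPM in mutants (change 0.52, SE 0.12). For glycolysis 16 of 20 genes were higher, 6 with an unadjusted p under 0.05, while 1 was lower at that threshold, and the median was 0.21. Lactate dehydrogenase Ldha had a change of 0.45 (SE 0.14). Mitochondrial ribosomal protein genes were higher in 71 of 77 cases, 9 with an unadjusted p under 0.05 (median 0.23), and cytosolic ribosomal protein genes in 81 of 82, 36 with an unadjusted p under 0.05 (median 0.37). The cytosolic ribosomal proteins had the largest median of these 4 lists. For genotype, the medians of these 4 lists lay between -0.045 and 0.015, and 1 of their genes, Rpl29, had an unadjusted p under 0.05 and was lower in mutants. Ribosomal protein genes have many processed copies, whose reads may be counted with them, and shared reads may also have been left out.

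**Figure D5:**
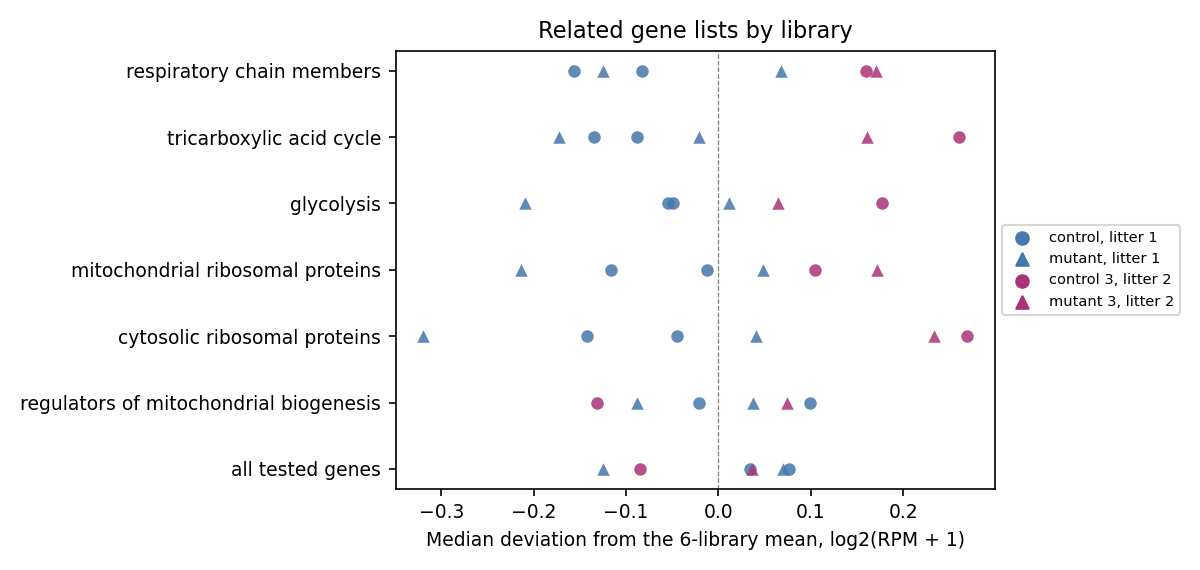
Median deviation of each gene list from its mean over the 6 libraries, on the log2(RPM + 1) scale (horizontal axis), with 1 symbol per library. For respiratory chain members, the tricarboxylic acid cycle, glycolysis and both kinds of ribosomal proteins the litter 2 symbols lie to the right of the other 4, and for regulators of mitochondrial biogenesis and all tested genes they do not.

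Markers of other cells also differed between the libraries. The 3 odontoblast markers did not share a direction. Dspp, the main odontoblast matrix gene, was at 4032 to 6872 RPM in litter 1 and at 817 and 113 RPM in control 3 and mutant 3. Phex was lower in litter 2 as well, while Dmp1, at 5.33 to 18.9 RPM in litter 1, was at 88.7 and 15.2 RPM in litter 2. The summed level, 4425 to 7614 RPM beside 1018 and 147 RPM, is mostly that of Dspp. All 6 tested erythroid markers were higher in litter 2, with summed levels of 2523 and 774 RPM beside 230 to 588 RPM. The 7 enamel epithelium markers summed to 36750 and 17080 RPM in litter 2, and in litter 1 to 2143 to 4454 RPM in 3 libraries and 47440 RPM in mutant 1, and most of these sums came from Amelx and Ambn. Of the 7, 5 were higher in litter 2. The litter changes of Klk4 (-0.14) and Mmp20 (-1.18) were below 0, and both had their lowest levels in mutant 3 (4.02 and 37.0 RPM). In control 3, however, Klk4 had its highest level (98.4 RPM). Mmp20 there, at 109 RPM, lay within its litter 1 range of 102 to 287 RPM. The summed level of the 5 tested macrophage and osteoclast markers, of 7 listed, was 258 and 237 RPM in litter 2 and 260 to 430 RPM in litter 1. Of the 5 tested, 4 were lower in litter 2, 2 of them with an unadjusted p under 0.05 (13.7% of tested genes were lower at it) and without overlap (20.5%). Named after their values were seen, these 2 were Csf1r (93.9 to 186 RPM in litter 1, 56.9 and 88.6 RPM in litter 2) and Emr1 (25.6 to 59.6 RPM, and 11.8 and 24.8 RPM). With the mean level of the enamel markers as a covariate the median litter change of members was 0.26, with 30 members higher and 1 lower at an unadjusted p under 0.05 by limma. That fit included no markers of the other cells. The part of odontoblasts, enamel epithelium, blood cells, macrophages and pericytes in the litter difference was not tested.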

How the data were processed

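The authors deposited a table of log2 values for 25899 genes in 6 libraries, titled as normalized RPKM. Raised as powers of 2, 99.9% of values above the column minimum were whole multiples (within 0.02 of a read) of a step that did not depend on the gene, so length was not divided out. Genes without reads carry the minimum, 0.9 of 1 read. The values were treated as RPM, a denominator inferred and not stated. TopHat2 and mm10 are named, per the submitters' processing notes. The counting program is not given in the sources used here.

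Tests used limma 3.58.1 (R 4.3.3) on log2(RPM + 1) for the 14444 genes that averaged 1 RPM or more (eBayes with trend, two-sided p, Benjamini-Hochberg over all tested genes), for genotype without a covariate, for litter with genotype as covariate, and for their interaction. The script was tested on simulated data. The fold changes understate low genes. The members and lists were chosen with earlier results of these data known. Named were the paralog families, the extreme members of each complex between genotypes, and untested members. Ndufs5, Ndufa1, the members with an unadjusted p under 0.05 between litters, and others described by role were named after their values were seen. Alternatives were another pseudocount, other filters, 2 other scalings, litter or replicate blocks, litter 1 alone, an enamel covariate, robust eBayes, limma voom and leaving out each library. Lengths come from GENCODE M21, whose build GRCm38 is mm10, and promoters from RefSeq GRCm38.p6, which held all 86 members by symbol or synonym.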

Additional observations from a re-analysis of the deposited data

How the results depend on the processing

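No member passed adjustment by limma with Benjamini-Hochberg under any alternative run. The number of genes with an unadjusted p under 0.05 between genotypes, reported as 152, was 316 in litter 1 alone, 292 with litter as a block, 344 with no filter and 524 with the replicate block. Leaving out each library in turn gave 68 to 319, and 0 to 1 genes with an adjusted p under 0.05. Members with an unadjusted p under 0.05 numbered 1 in litter 1 alone and 0 to 1 across the left-out libraries, and members above 0 numbered 37 to 78. The genotype medians, above 0 as reported, then ran from -0.013 to 0.16 for all members, -0.047 to 0.15 for complex II, -0.026 to 0.18 for complex III and -0.036 to 0.17 for complex V. The replicate numbers come from column names. Same-numbered libraries had deviations correlated at -0.033, 0.75 and 0.50 across genes, so the numbers were not taken to pair the samples, and under the replicate block 0 members had an unadjusted p under 0.05.

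Between litters, genes with an adjusted p under 0.05, reported as 126, numbered 1 with the enamel covariate, 1 with voom, 0 with median-of-ratios scaling, 2 with no filter, 204 with robust eBayes and 1 with upper-quartile scaling, and 0 to 371 with a library left out. Genes with an unadjusted p under 0.05 then numbered 1396 to 4245. Members with an unadjusted p under 0.05, reported as 24, were 39 with median-of-ratios and 41 with upper-quartile scaling, and 4 to 22 with a library left out. In those fits the median change ran from 0.17 to 0.34 for complex III, from 0.24 to 0.37 for complex V and from 0.18 to 0.28 for all members. A lone library of litter 2 is then assumed to vary like the others. For these moves the cause was not tested.

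Calls at an unadjusted p under 0.05 were read for all members in each alternative. Changes were followed through all alternatives only for the members named by rule, and some reversed direction in fits with a library left out. Of those that did, the genotype changes ran from -0.12 to 0.31 for Atp5g1, -0.033 to 0.12 for Atp5g2, -0.079 to 0.18 for Atp5g3, -0.16 to 0.043 for Atp5sl, -0.021 to 0.27 for Cox4i1, -0.39 to 0.19 for Cox4i2, -0.055 to 0.30 for Cox6a1, -0.0024 to 0.24 for Cox6b1, -0.043 to 0.071 for Cox8a, -0.14 to 0.018 for Sdha, -0.016 to 0.22 for Sdhc and -0.12 to 0.051 for Uqcrc2. The litter changes ran from -0.16 to 0.38 for Atp5sl and from -0.0032 to 0.15 for Cox7a2l. Depth limits the 5 untested members, where 1 read is worth 0.0329 to 0.0419 RPM.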

Other observations

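Of 16 genes that regulate mitochondrial biogenesis, 5 were higher in litter 2 (46.5% of tested genes were), 0 had an unadjusted p under 0.05 by limma (20.9% of tested genes did), and the median change was -0.055. NRF1, whose recognition letters were counted in the promoters, is encoded by Nrf1, at 26.4, 24.1 and 23.9 RPM in controls and 23.2, 23.6 and 30.3 RPM in mutants. Gabpa, an ETS factor, measured 84.6, 85.9 and 70.5 RPM in controls and 67.6, 83.6 and 73.9 RPM in mutants, and Tfam, which packages and transcribes mitochondrial DNA, was at 27.3 to 35.3 RPM. Ppargc1a, a coactivator of oxidative metabolism, varied more than these 3, at 2.07, 1.71 and 8.33 RPM in controls and 8.21, 2.70 and 5.45 RPM in mutants. Its highest libraries, control 3, mutant 1 and mutant 3, are also the 3 richest in enamel epithelium markers, and the part of that tissue was not tested. Ppargc1a is named after its values were seen.

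Assembly factors and electron carriers were counted beside the subunits. Of 9 complex I assembly factors, 8 were higher in litter 2 (46.5% of tested genes were; median 0.13), 2 with an unadjusted p under 0.05: Acad9 (0.34) and Ecsit (0.51). Of 11 complex IV assembly factors, 6 were higher and 5 lower (median 0.14), shares near those of all tested genes, and 1, the copper chaperone Sco2 (0.47), was higher at an unadjusted p under 0.05, as 7.21% of tested genes were. Without overlap between litters, 3 of the 11 were higher and 2 lower, where 15% and 20.5% of tested genes were. The median was 0.15 for the 2 factors of complex II, 0.035 for the 3 of complex III and 0.058 for the 3 of complex V, and 0 of these had an unadjusted p under 0.05. The 12 genes of electron carriers and coenzyme Q synthesis had a median of 0.014, with 8 higher and 4 lower, and without overlap 1 higher and 2 lower, again beside 15% and 20.5%. Cycs, the gene for somatic cytochrome c, measured 12.9, 11.5 and 18.1 RPM in controls and 14.3, 13.6 and 16.6 RPM in mutants, a litter change of 0.39 (unadjusted p = 0.0386 by limma). Lyrm7, a factor that matures the Rieske protein of complex III, was the only assembly factor with an unadjusted p under 0.05 between genotypes, where 1.05% of tested genes had one (0.692% lower) and 1.67% were lower without overlap. It measured 5.43, 5.67 and 5.15 RPM in controls and 3.13, 4.22 and 3.90 RPM in mutants, with no overlap (log2 change -0.44, SE 0.18, unadjusted p = 0.0432, Benjamini-Hochberg adjusted p = 1.00 by limma). These genes are named after their values were seen.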
